A study of Mus musculus with 4 samples.

Results

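Insulin signaling and its end point in fat cells, the glucose transporter GLUT4, were followed through 9 genes in 4 stable lines of 3T3-L1, a murine preadipocyte line that can be turned into fat-storing cells by hormones. The genes are Insr, Irs1, Irs2, Pik3r1, Akt1, Akt2, Tbc1d4, Slc2a4 and Cbl, chosen by symbol from the 13085 genes to which the deposited rows were joined, and each was held in 1 row. All lines had been grown to confluence and given 5 µM rosiglitazone, a PPARγ agonist, together with 0.5 mM IBMX, dexamethasone at 1 µg/ml and insulin at 5 µg/ml, of which insulin was kept in the later medium, and RNA was taken on day 8. FLAG cells carried the empty FLAG vector and FLAG-CACUL1 cells the same vector with CACUL1, a corepressor of nuclear receptors, and both had been selected with G418. The sh-Luc cells carried a hairpin against luciferase and the sh-CACUL1 cells a single hairpin against CACUL1, and both had been selected with hygromycin B. RNA-seq was performed on 1 sample of each line, so no difference below has a replicate check or a p-value, and a difference between lines cannot be told apart from one between the cultures or the selected cells. Levels are FPKM, fragments per kilobase of transcript relative to the depth of the sample, which allows genes of different length to be set side by side.

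Insulin binds the receptor encoded by Insr, which phosphorylates the docking proteins IRS1 and IRS2. These recruit PI3-kinase through regulatory subunits such as that of Pik3r1, and the lipid it makes brings AKT kinases to the membrane. AKT phosphorylates TBC1D4, a Rab GTPase-activating protein that otherwise holds GLUT4 vesicles inside the cell, and GLUT4 then reaches the surface and takes up glucose. A second branch runs through the adaptor and ubiquitin ligase CBL, which is brought to the receptor by APS (Sh2b2). Slc2a4, which encodes GLUT4, is switched on late in adipocyte differentiation, while Slc2a1, which encodes the ubiquitous GLUT1, is expressed already in preadipocytes.

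The lines differed in adipocyte marker levels on day 8. The labels call the cells preadipocytes, but all 8 adipocyte markers examined (Adipoq, Fabp4, Plin1, Cidec, Lpl, Cfd, Pparg and Lipe) were detected in each sample. Their summed level was 8495 FPKM in FLAG, 889 FPKM in FLAG-CACUL1, 1721 FPKM in sh-Luc and 17705 FPKM in sh-CACUL1. Single genes dominated these sums, with Fabp4 at 4991 FPKM in FLAG, 1020 FPKM in sh-Luc and 12543 FPKM in sh-CACUL1, and Lpl at 512 FPKM in FLAG-CACUL1. Adipoq, Fabp4, Cidec, Cfd and Lipe were higher in sh-CACUL1 than in FLAG, but Plin1, Lpl and Pparg were lower. Lpl alone of these markers was higher in FLAG-CACUL1 than in sh-Luc. The 7 preadipocyte and fibroblast markers with a row summed to 4854 FPKM in FLAG, 6993 FPKM in FLAG-CACUL1, 3148 FPKM in sh-Luc and 632 FPKM in sh-CACUL1. Col1a1 and Col3a1 made up most of these sums. Dlk1 was at 0.220 FPKM and Thy1 at 0.663 FPKM in sh-Luc, but they were between 21.2 and 144 FPKM elsewhere. Cd68, a macrophage marker, was at 16.2 FPKM in FLAG and between 0.962 and 1.44 FPKM in the other lines, while Csf1r was at most at 0.607 FPKM. Of the skeletal muscle markers, the other tissue known for GLUT4, 2 of 6 had a row, with at most 0.679 FPKM, as had 1 of 5 endothelial markers, with at most 0.301 FPKM. Cacul1 itself was at 9.61 FPKM in FLAG, 11.8 FPKM in FLAG-CACUL1, 10.2 FPKM in sh-Luc and 5.39 FPKM in sh-CACUL1. On log2(FPKM + 1), this was 0.27 for FLAG-CACUL1 against FLAG and -0.82 for sh-CACUL1 against sh-Luc, both under 2-fold. The study checked the lines for FLAG-CACUL1 or CACUL1 protein by western blot. In bulk RNA, fewer adipocytes and less RNA per adipocyte cannot be told apart, and the part that adipocyte content has in the differences below was not tested. Depth, inferred from how far apart low FPKM values lie, was 14400000 fragments in FLAG and 14300000 in FLAG-CACUL1, against 24000000 for sh-Luc and 14900000 for sh-CACUL1. The 95% intervals given below are Poisson or binomial intervals of the estimated fragment numbers and cover counting error only.

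Slc2a4 had the widest range of the 9 genes. This gene lies at chr11:69942539-69948188 on the minus strand (GRCm38, as are all positions below). Its level was 41.7 FPKM in FLAG, 0.101 FPKM in FLAG-CACUL1, 1.13 FPKM in sh-Luc and 12.3 FPKM in sh-CACUL1, values that stand for about 1519, 4, 69 and 462 fragments. Among all genes of its own sample Slc2a4 thus stood at percentile 86.9 in FLAG and 5.36 in FLAG-CACUL1, against 19.4 for sh-Luc and 68.8 for sh-CACUL1, an order that no scaling between samples can change. The order of the 4 lines matched that of Plin1 and Pparg but not that of Adipoq, which was higher in sh-CACUL1 than in FLAG. The ratio of Slc2a4 to Adipoq was 0.0498 in FLAG and 0.00440 in FLAG-CACUL1, against 0.00659 for sh-Luc and 0.00979 for sh-CACUL1, so FLAG stood apart from the other 3 samples relative to this adipocyte marker. Log2 ratios without a pseudocount were taken from the fragments rounded to whole numbers. By these, FLAG-CACUL1 was lower than FLAG by -8.55 (95% interval -10.43 to -7.20), a difference limited by the 4 fragments, beside -8.69 from FPKM. The sh-CACUL1 sample was higher than sh-Luc by 3.43 (3.06 to 3.82) in rounded fragments. The sh-Luc control itself was lower than the FLAG control, by -5.20 (-5.57 to -4.85). On the log2(FPKM + 1) scale used from here on, which damps the change of genes with low FPKM, the differences of Slc2a4 were -5.28, 2.64 and -4.33 in these 3 comparisons. Against the other control, FLAG-CACUL1 was still lower than sh-Luc, by -0.95 and thus just under 2-fold on this scale, at a ratio of 11.2 in FPKM. By contrast sh-CACUL1 was lower than FLAG, by -1.69, so the direction of the sh-CACUL1 difference turned with the control.

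**Figure D1:**
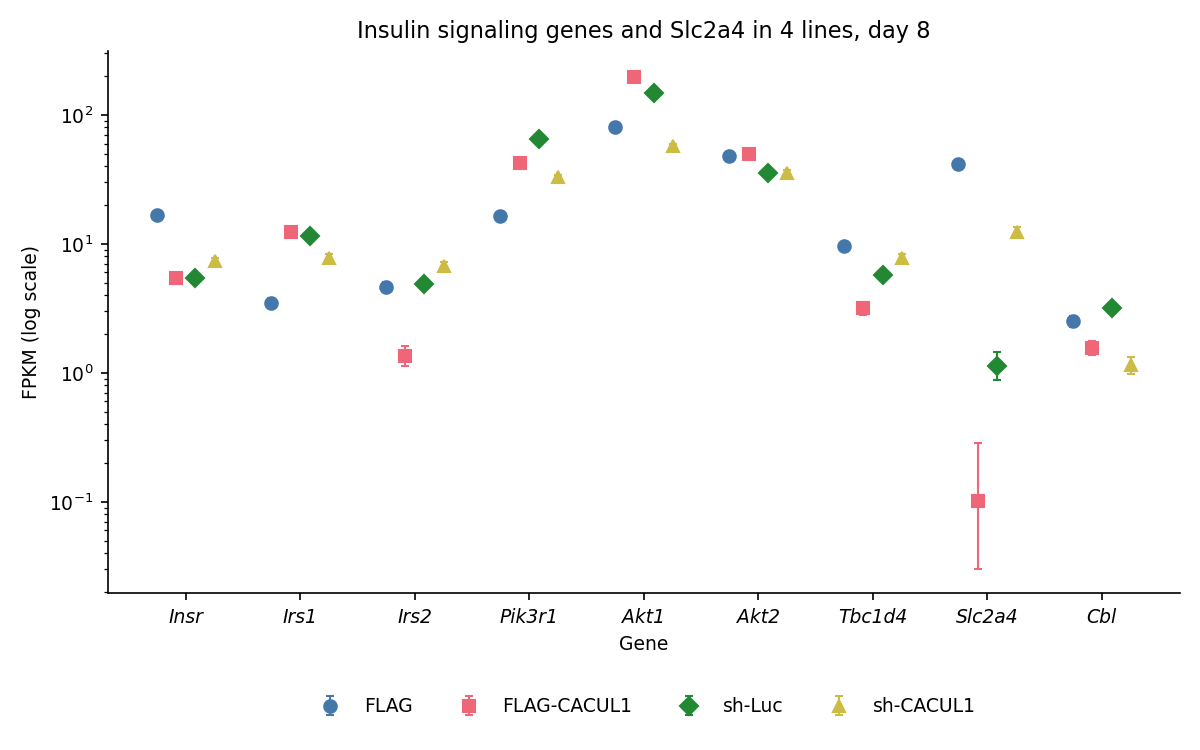
FPKM on a log axis (y) of the 9 genes (x) in the single sample of each line, with 95% Poisson intervals of the estimated fragments as bars where they exceed the symbol. Slc2a4 spans from 0.101 to 41.7 FPKM, while Akt2 stays between 35.5 and 49.7 FPKM.

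At the top of the pathway, Insr (chr8:3122061-3279617, minus strand) was high in 1 line. It was at 16.6 FPKM in FLAG, 5.43 FPKM in FLAG-CACUL1, 5.44 FPKM in sh-Luc and 7.35 FPKM in sh-CACUL1. FLAG stood above the other 3 samples, and the intervals of FLAG-CACUL1 (5.05 to 5.85) and sh-Luc (5.14 to 5.76) overlapped. The difference was thus -1.45 for FLAG-CACUL1 against FLAG, the same -1.45 for the control sh-Luc against FLAG, and 0.37 for sh-CACUL1 against sh-Luc. Igf1r, the receptor of the related growth factor, was at 5.70, 3.91, 3.25 and 1.79 FPKM, and the ratio of Insr to Igf1r was 2.92 in FLAG and 1.39 in FLAG-CACUL1, against 1.68 for sh-Luc and 4.10 for sh-CACUL1. This ratio, taken within a sample, was higher in FLAG and sh-CACUL1, the lines with the higher adipocyte marker levels.

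The substrates of the receptor differed from FLAG in opposite directions in FLAG-CACUL1. Irs1 (chr1:82233101-82291416, minus strand) was at 3.47 FPKM in FLAG, 12.3 FPKM in FLAG-CACUL1, 11.4 FPKM in sh-Luc and 7.81 FPKM in sh-CACUL1. Here FLAG was the low sample, and FLAG-CACUL1 differed from it by 1.58, the sh-Luc control by 1.48. Irs2 (chr8:10984681-11008458, minus strand) was at 4.63 FPKM in FLAG, 1.36 FPKM in FLAG-CACUL1, 4.92 FPKM in sh-Luc and 6.71 FPKM in sh-CACUL1. For Irs2 it was FLAG-CACUL1 that stood below the other 3 samples, while the controls differed by 0.07, or by -0.18 to 0.25 over 4 scalings, and had overlapping intervals (4.20 to 5.10 and 4.57 to 5.28). On the log2(FPKM + 1) scale, Irs2 alone among the 9 genes was at least 2-fold lower in FLAG-CACUL1 against either control, by -1.26 against FLAG and -1.33 against sh-Luc, while in FPKM itself Slc2a4 was so too. In sh-CACUL1, Irs2 was higher than sh-Luc by 0.38 and Irs1 lower by -0.50, both under 2-fold. Over the 4 scalings these ran from 0.38 to 0.84 for Irs2 and from -0.50 to -0.05 for Irs1, so the Irs1 difference nearly vanished under some. Against FLAG, sh-CACUL1 was higher for both, by 0.45 for Irs2 and 0.98 for Irs1, so the direction of Irs1 turned with the control. The ratio of Irs1 to Irs2 within a sample was 0.749 in FLAG and 9.09 in FLAG-CACUL1, against 2.33 for sh-Luc and 1.16 for sh-CACUL1, so FLAG-CACUL1 was the line in which Irs1 most exceeded Irs2.

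Pik3r1 and Akt1 were higher in FLAG-CACUL1 than in FLAG and lower in sh-CACUL1 than in sh-Luc. Pik3r1 (chr13:101680563-101768217, minus strand) was at 16.5 FPKM in FLAG, 42.1 FPKM in FLAG-CACUL1, 64.9 FPKM in sh-Luc and 33.1 FPKM in sh-CACUL1. The differences were 1.30 for FLAG-CACUL1 against FLAG and -0.95 for sh-CACUL1 against sh-Luc, the latter just under 2-fold. Over the 4 scalings the latter ran from -0.95 to -0.48. The sh-Luc control was the highest sample and exceeded FLAG by 1.91, so that FLAG-CACUL1 was lower than sh-Luc by -0.61, against its direction relative to FLAG. Likewise sh-CACUL1 was higher than FLAG, by 0.96, so both directions of Pik3r1 turned with the control. Pik3ca, which encodes a catalytic subunit, varied less, and the ratio of Pik3r1 to Pik3ca was 3.50 in FLAG but 7.62 in FLAG-CACUL1, 8.96 for sh-Luc and 8.28 for sh-CACUL1.

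Akt1 (chr12:112653821-112674884, minus strand) was the most abundant of the 9 genes in every sample. It was at 80.4 FPKM in FLAG, 198 FPKM in FLAG-CACUL1, 148 FPKM in sh-Luc and 57.4 FPKM in sh-CACUL1. FLAG-CACUL1 and sh-Luc were thus the high samples, with differences of 1.29 for FLAG-CACUL1 against FLAG and -1.35 for sh-CACUL1 against sh-Luc, and the controls differed by 0.87. Under median-of-ratios scaling, which sets the typical gene level between samples, the sh-CACUL1 difference was -0.89, under 2-fold. Akt2 (chr7:27591552-27640826, plus strand), the isoform most tied to glucose uptake, had the narrowest range of the 9, at 48.3 FPKM in FLAG, 49.7 FPKM in FLAG-CACUL1, 35.7 FPKM in sh-Luc and 35.5 FPKM in sh-CACUL1. Its difference was 0.04 for FLAG-CACUL1 against FLAG and -0.01 for sh-CACUL1 against sh-Luc, with log2 ratios whose 95% counting intervals were -0.04 to 0.12 and -0.09 to 0.07. Across the 4 scalings (FPKM as deposited, a common sum, median-of-ratios and quantile), these differences ran from -0.09 to 0.06 and from -0.01 to 0.45, so Akt2 was level in sh-CACUL1 as deposited but not under every scaling. Between the controls Akt2 was lower in sh-Luc than in FLAG, with a log2 ratio of -0.43 (-0.51 to -0.36), and by -0.71 under median-of-ratios scaling.

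The balance of both isoforms within a sample does not depend on a factor applied to the whole sample. Akt1 made up 62.5% of the summed FPKM of Akt1 and Akt2 in FLAG and 79.9% in FLAG-CACUL1, against 80.6% for sh-Luc and 61.8% for sh-CACUL1. The lines thus formed pairs, with a larger Akt2 share in FLAG and sh-CACUL1, which also had the higher adipocyte marker levels.

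**Figure D2:**
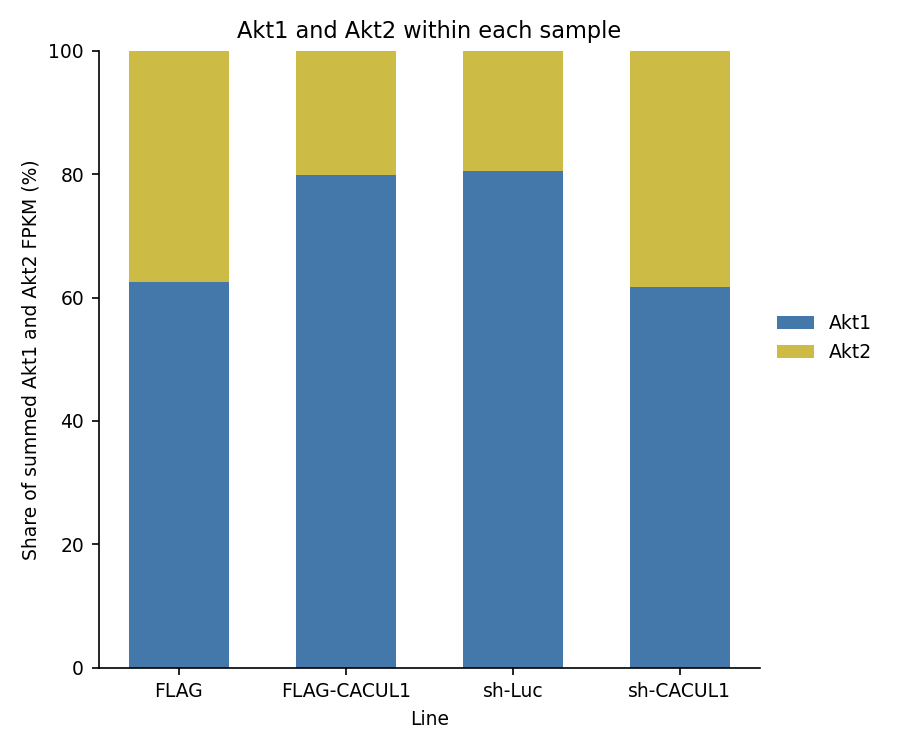
Share (y, percent) of Akt1 and Akt2 in their summed FPKM in the single sample of each line (x). The Akt1 share is 62.5% and 61.8% for FLAG and sh-CACUL1 but 79.9% and 80.6% in FLAG-CACUL1 and sh-Luc.

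Tbc1d4 (chr14:101442360-101609191, minus strand) had the same order of lines as Slc2a4 in a narrower range. It was at 9.63 FPKM in FLAG, 3.18 FPKM in FLAG-CACUL1, 5.76 FPKM in sh-Luc and 7.77 FPKM in sh-CACUL1. FLAG-CACUL1 was the lowest sample and differed from FLAG by -1.35 and from sh-Luc by -0.69, while sh-CACUL1 exceeded sh-Luc by 0.38. Against FLAG, sh-CACUL1 was lower, by -0.28, so this direction turned with the control. Its paralog Tbc1d1 was at 6.11, 6.66, 5.23 and 3.33 FPKM, and the ratio of Tbc1d4 to Tbc1d1 was 1.58 in FLAG and 0.477 in FLAG-CACUL1, against 1.10 for sh-Luc and 2.34 for sh-CACUL1. Tbc1d1 was thus the more abundant of the pair only in FLAG-CACUL1.

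Cbl (chr9:44142976-44234049, minus strand) was the least abundant in FLAG and sh-CACUL1, with 2.50 FPKM in FLAG, 1.56 FPKM in FLAG-CACUL1, 3.17 FPKM in sh-Luc and 1.14 FPKM in sh-CACUL1. It was lower in both CACUL1 lines than in their controls, by -0.45 and -0.96 on the log2(FPKM + 1) scale. In FPKM without a pseudocount the sh-CACUL1 difference was -1.48, past 2-fold, as it also was with FPKM set to a common sum. Its relative Cblb was 3.51 to 6.37 times as abundant as Cbl in the 4 samples.

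Counted together, 3 of the 9 genes (Irs1, Akt1 and Pik3r1) were at least 2-fold higher in FLAG-CACUL1 than in FLAG, where 7.51% of all genes were. The 4 genes Insr, Irs2, Slc2a4 and Tbc1d4 were at least 2-fold lower, where 7.22% of all genes were. Against sh-Luc, only Irs2 was at least 2-fold lower in FLAG-CACUL1, beside 4.87% of all genes, and none of the 9 was at least 2-fold higher, beside 5.04%. In sh-CACUL1 against sh-Luc, 1 gene (Slc2a4) was at least 2-fold higher, beside 4.94% of all genes, and 1 (Akt1) was lower, beside 16.4%. The latter is no larger a share than the background. Against FLAG, sh-CACUL1 had none of the 9 at least 2-fold higher, beside 7.45%, and Insr and Slc2a4 lower, beside 15.4%. Between the controls, which share their samples with the other comparisons, Irs1 and Pik3r1 were higher in sh-Luc than in FLAG, beside 12.4% of all genes, and Insr and Slc2a4 were lower, beside 8.58%. As a median, the 9 genes differed by -0.45 in FLAG-CACUL1 against FLAG and by -0.01 in sh-CACUL1 against sh-Luc, beside 0.09 and -0.30 for all genes. Median-of-ratios scaling moved the median of all genes in sh-CACUL1 against sh-Luc to 0.01 and that of the 9 genes to 0.45. It also moved the calls over all genes in that comparison from 647 higher and 2141 lower to 1231 higher and 975 lower, and those in FLAG-CACUL1 against FLAG from 983 and 945 to 755 and 1169. Between the controls, the calls went from 1627 higher and 1123 lower to 937 and 1565. The 7 genes past 2-fold in FLAG-CACUL1 against FLAG kept their sign and stayed past 2-fold in each of the 4 scalings, the smallest being 1.15 for Akt1.

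**Figure D3:**
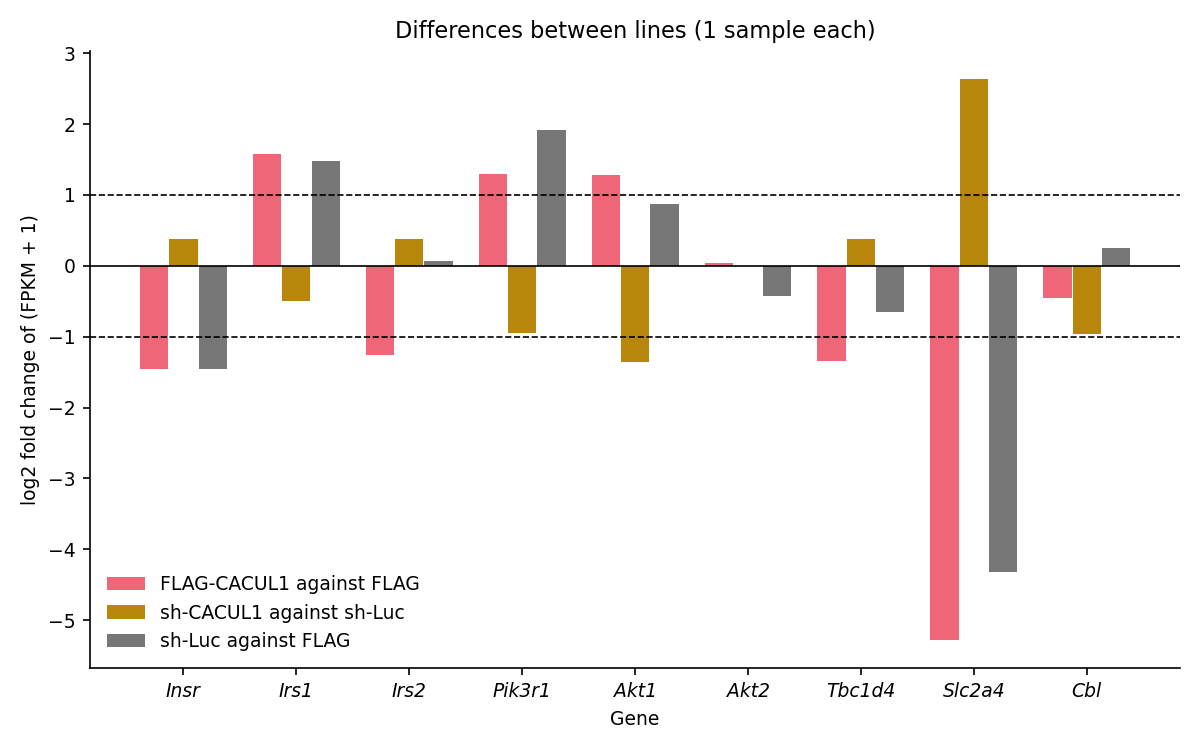
Log2 fold change of FPKM + 1 (y) for the 9 genes (x) in FLAG-CACUL1 against FLAG, sh-CACUL1 against sh-Luc and sh-Luc against FLAG, 1 sample each, with dashed lines at 2-fold. The grey bars of the controls are about as long as the red bars for Insr (both -1.45) and Irs1 (1.48 and 1.58), but not for Irs2 (0.07 and -1.26).

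The RefSeq promoter table (GRCm38.p6) held 7 of the 9 genes, with 12 entries, among them Irs1 and Akt1, which were higher in FLAG-CACUL1 than in FLAG, and Irs2 and Tbc1d4, which were lower. The 250 bases before 1 annotated start of each of these 4 are shown, 5′ to 3′ on the strand of the gene. They lie at chr1:82291440-82291689 for Irs1, chr12:112674885-112675134 for Akt1, chr8:11008930-11009179 for Irs2 and chr14:101609192-101609441 for Tbc1d4, all on the minus strand. Capitals mark matches, on either strand, to a FOXO site (TGTTTAC), a PPAR half-site (AGGTCA), a C/EBP site (TTGCNNAA), an E-box (CACGTG), an Sp1 box (GGGCGG), a KLF box (CACCC) and a CCAAT box (CCAAT).
Irs1: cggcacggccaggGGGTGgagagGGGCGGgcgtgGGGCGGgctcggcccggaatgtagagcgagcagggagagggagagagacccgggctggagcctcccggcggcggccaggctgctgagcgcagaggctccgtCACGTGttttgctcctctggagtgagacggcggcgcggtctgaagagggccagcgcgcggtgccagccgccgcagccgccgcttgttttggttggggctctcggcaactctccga
Akt1: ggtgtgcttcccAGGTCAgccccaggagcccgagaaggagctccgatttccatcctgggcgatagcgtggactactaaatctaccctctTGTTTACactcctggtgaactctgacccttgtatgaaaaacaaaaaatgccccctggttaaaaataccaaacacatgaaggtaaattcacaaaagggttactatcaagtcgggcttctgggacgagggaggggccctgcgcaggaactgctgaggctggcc
Irs2: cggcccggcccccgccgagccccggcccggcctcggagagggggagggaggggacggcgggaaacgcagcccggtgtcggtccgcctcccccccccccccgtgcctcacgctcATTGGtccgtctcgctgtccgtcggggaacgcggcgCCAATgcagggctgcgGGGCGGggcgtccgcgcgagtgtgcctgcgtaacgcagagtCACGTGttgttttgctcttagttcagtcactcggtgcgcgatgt
Tbc1d4: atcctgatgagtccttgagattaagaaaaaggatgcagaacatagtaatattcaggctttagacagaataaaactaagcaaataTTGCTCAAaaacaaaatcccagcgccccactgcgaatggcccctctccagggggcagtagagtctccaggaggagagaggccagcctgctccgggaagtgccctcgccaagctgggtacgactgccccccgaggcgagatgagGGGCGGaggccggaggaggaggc
Irs1 and Irs2 both held the E-box, 110 and 39 bases before the start, as did 6.02% of the 32851 promoters in the table. The Sp1 box was found before at least 1 start of all 7 genes and in 7 of the 12 entries, and in 32.7% of all promoters. Akt1 held the FOXO site 155 bases and the PPAR half-site 233 bases before this start, motifs found in 3.17% and 14.0% of all promoters. The other Akt1 entry, at chr12:112674277-112674526 and not shown, held neither of them but Sp1 and KLF boxes, at a GC content of 78.4%. Tbc1d4 held the C/EBP site, found in 9.56% of all promoters. The GC content of the stretches shown was 72.4% for Irs1, 72.8% for Irs2, 52.0% for Akt1 and 54.8% for Tbc1d4, beside a median of 52.4% over all promoters. In these stretches no match overlapped a match to another motif, and genes that moved in opposite directions shared the E-box and the Sp1 box.

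The rest of the pathway was followed through 83 further genes in 8 lists, of which 77 had a row. In FLAG-CACUL1 against FLAG, 7 of these 77 were at least 2-fold higher and 10 lower, 9.09% and 13.0% against the 7.51% and 7.22% of all genes. In sh-CACUL1 against sh-Luc, 6 were higher and 13 lower, 7.79% and 16.9% against 4.94% and 16.4%. Their median log2 fold changes were 0.04 and -0.47, beside 0.09 and -0.30 over all genes.

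In the CBL branch, Sh2b2, which encodes the adaptor APS, was at 32.0 FPKM in FLAG, 3.36 FPKM in FLAG-CACUL1, 2.54 FPKM in sh-Luc and 21.7 FPKM in sh-CACUL1, with differences of -2.92 and 2.68. It was thus high in FLAG and sh-CACUL1 and low in FLAG-CACUL1 and sh-Luc. Against the other control Sh2b2 changed its sign in both, to 0.30 and -0.54. Flot1, which encodes a lipid raft protein, was higher in FLAG-CACUL1 than in FLAG by 1.33, and Exoc7, which encodes an exocyst subunit, was at 14.8 FPKM in sh-Luc and 4.60 FPKM in sh-CACUL1. In all, 1 of the 9 genes counted in this list was at least 2-fold higher and 1 lower in each of the 2 comparisons, 11.1% each. Of all genes, 7.51% were higher and 7.22% lower in FLAG-CACUL1, and 4.94% and 16.4% in sh-CACUL1.

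Of the 8 factors known to act at the Slc2a4 promoter, 5 fell at least 2-fold short of FLAG in FLAG-CACUL1, and 5 were at least 2-fold higher in sh-CACUL1, where 2 others were lower. Of all genes, 7.22% were lower in FLAG-CACUL1, and 4.94% were higher and 16.4% lower in sh-CACUL1. Klf15, a Krüppel-like activator of Slc2a4, was at 5.56 FPKM in FLAG, 0.190 FPKM in FLAG-CACUL1, 0.319 FPKM in sh-Luc and 3.71 FPKM in sh-CACUL1, with differences of -2.46 and 1.84. Pparg, the master regulator of adipogenesis, was at 70.1, 12.3, 14.8 and 61.8 FPKM, with differences of -2.42 and 2.00. Cebpa, which acts beside it, differed by -1.98 and 1.48, and Nr1h3, which encodes the oxysterol receptor LXRα, by -1.62 and 4.41. These 4 shared the high samples FLAG and sh-CACUL1 with Slc2a4, and Pparg is also 1 of the adipocyte markers. Against the other control only part of these directions held. FLAG-CACUL1 against sh-Luc gave -0.15 for Klf15 and -0.25 for Pparg but 0.86 for Cebpa and 1.31 for Nr1h3, the last past 2-fold in the opposite direction, and sh-CACUL1 against FLAG gave -0.48, -0.18, -1.36 and 1.48 in the same order. The fifth gene differed between the comparisons. Hdac5, which encodes a histone deacetylase, was lower in both, by -1.45 and -1.03, and Rxra, which encodes the partner receptor of PPARγ, differed by 0.50 in FLAG-CACUL1 and was higher in sh-CACUL1 by 1.17. Mef2a and Mef2d, which encode MEF2 factors, did not follow the 4 genes either. Mef2a differed by 0.44 and -0.65, and Mef2d by -0.06 and -1.27.

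**Figure D4:**
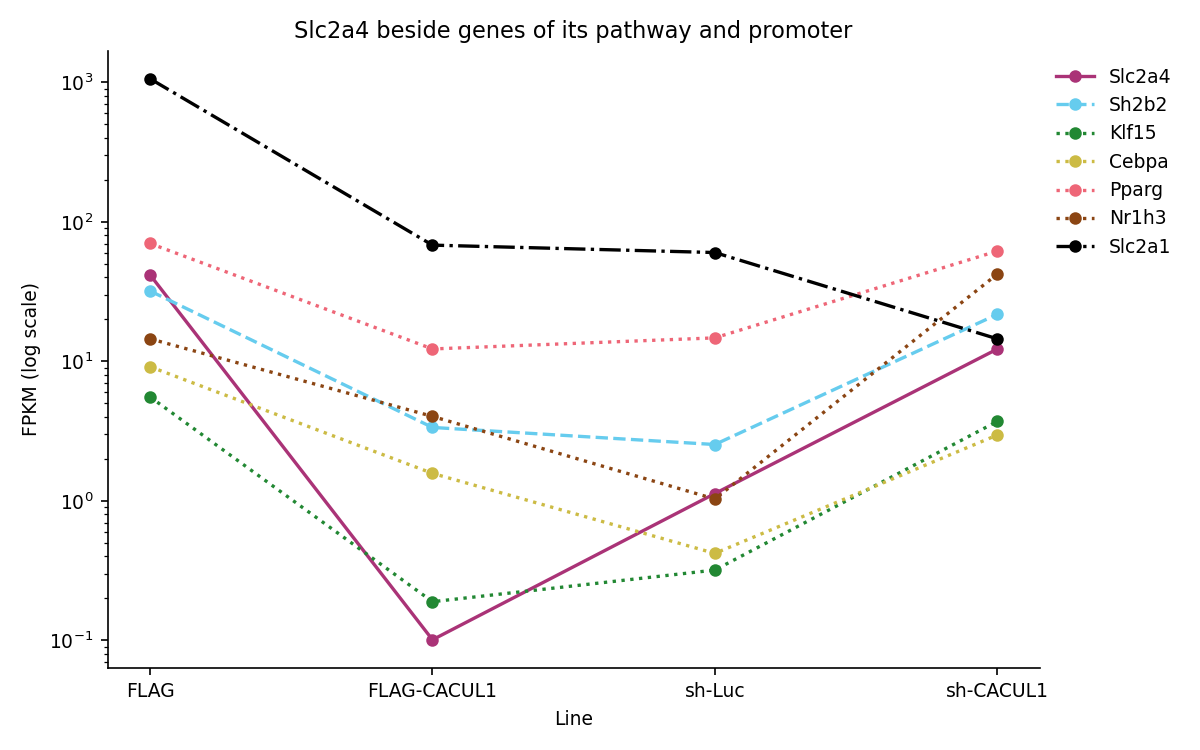
FPKM on a log axis (y) of Slc2a4, its promoter factors Klf15, Cebpa, Pparg and Nr1h3, the CBL partner Sh2b2, and Slc2a1. Each line (x) has a single sample, and the values of 1 gene are joined. The listed promoter factors Rxra, Hdac5, Mef2a and Mef2d, which did not follow Slc2a4, are not drawn. Slc2a4, Sh2b2, Klf15, Cebpa, Pparg and Nr1h3 are lower in FLAG-CACUL1 and sh-Luc than in FLAG and sh-CACUL1, while Slc2a1 is at 1063 FPKM in FLAG but only 14.5 FPKM in sh-CACUL1.

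Among the other glucose transporters, the ratio of Slc2a4 to Slc2a1 gave the balance of GLUT4 to GLUT1 transcripts within a sample. It came to 0.0392 in FLAG and 0.00148 in FLAG-CACUL1, against 0.0187 for sh-Luc and 0.843 for sh-CACUL1, so GLUT1 transcripts exceeded GLUT4 transcripts in all 4 samples and came near to them in sh-CACUL1. Slc2a1 was at 1063 FPKM in FLAG, 68.2 FPKM in FLAG-CACUL1, 60.4 FPKM in sh-Luc and 14.5 FPKM in sh-CACUL1. FLAG stood far above the other lines for this gene, so it did not follow Slc2a4 in sh-CACUL1. Slc2a8, which encodes an intracellular transporter, was at 23.8, 8.35, 6.97 and 10.4 FPKM, with differences of -1.41 and 0.51. Of the 5 transporters with a row, none was at least 2-fold higher, while FLAG-CACUL1 had 2 lower and sh-CACUL1 had 1. These are 40% and 20%, beside 7.22% and 16.4% of all genes.

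The machinery that moves and fuses GLUT4 vesicles held 2-fold differences at about the rate of all genes in FLAG-CACUL1. Of its 14 genes with a row, 1 was at least 2-fold higher and 1 lower there, 7.14% each beside 7.51% and 7.22%. In sh-CACUL1, 2 were lower, 14.3% beside 16.4% of all genes, and none was higher, beside 4.94%. Sort1, the sortilin that forms the vesicles, was at 12.8 FPKM in FLAG, 5.48 FPKM in FLAG-CACUL1, 12.2 FPKM in sh-Luc and 9.05 FPKM in sh-CACUL1, a difference of -1.09 against FLAG and -1.03 against sh-Luc. Lnpep, the aminopeptidase that travels with GLUT4, was at 16.7, 8.08, 17.0 and 18.2 FPKM, and its differences in FLAG-CACUL1 were -0.96 and -0.99 against the 2 controls. Thus Sort1 and Lnpep, like Irs2, were low in FLAG-CACUL1 and close between the controls. Lrp1, a receptor found on the vesicles, was at 143, 328, 145 and 23.7 FPKM, with differences of 1.19 and -2.57. It too was close between the controls, and is abundant in fibroblasts as well. Stxbp4 was at 5.14 FPKM in sh-Luc and 2.07 FPKM in sh-CACUL1, a bare 2-fold. The ratio of Slc2a4 to Lnpep was 2.50 in FLAG and 0.0125 in FLAG-CACUL1, against 0.0663 for sh-Luc and 0.674 for sh-CACUL1, so the vesicle cargo differed far more than this companion.

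Genes that restrain insulin signaling moved both ways. Of 13 with a row, 3 were at least 2-fold higher and 1 lower in FLAG-CACUL1, 23.1% and 7.69% beside 7.51% and 7.22% of all genes. In sh-CACUL1, 4 were lower, 30.8% beside 16.4%, and none was higher, beside 4.94%. Socs1, a suppressor of cytokine signaling that can target IRS proteins, was at 4.83 FPKM in FLAG, 12.9 FPKM in FLAG-CACUL1, 11.5 FPKM in sh-Luc and 2.30 FPKM in sh-CACUL1, with differences of 1.26 and -1.93. Grb14, an inhibitor of the receptor kinase, was at 6.18, 16.4, 4.36 and 1.63 FPKM, with differences of 1.28 and -1.03, and against the other control they were 1.70 and -1.45. For Socs1 they were 0.15 and -0.82 against the other control. With FPKM as deposited, both inhibitors were thus higher in FLAG-CACUL1 and lower in sh-CACUL1 against either control. Only Grb14 was past 2-fold throughout, and barely so at -1.03. Median-of-ratios scaling cut the pathway genes called lower in sh-CACUL1 against sh-Luc from 13 to 6, and all genes from 2141 to 975. Values of the single genes of this list under that scaling are not reported here. Trib3, a pseudokinase that binds AKT, was lower in both comparisons, by -1.43 and -1.26. Rps6kb1, which encodes the S6 kinase, was higher in FLAG-CACUL1 by 1.20, and Phlpp1, an AKT phosphatase, was lower in sh-CACUL1 by -1.68.

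Of the 10 AKT substrates, 1 was at least 2-fold higher in FLAG-CACUL1 and 1 lower in sh-CACUL1, 10% each beside 7.51% and 16.4% of all genes. These were Akt1s1, an mTORC1 inhibitor, with a difference of 1.29, and Foxo3, a forkhead factor, with -1.89. Among the 10 genes of PI3-kinase and mTORC2 counted, Pik3r3 was higher in FLAG-CACUL1 by 1.63, and Pik3r2 was lower in sh-CACUL1 by -1.11, again 10% each. Of 8 substrates and adaptors with a row only Dok1 passed 2-fold, in sh-CACUL1, with -1.34, or 12.5% lower beside the 16.4% of all genes.

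**Figure D5:**
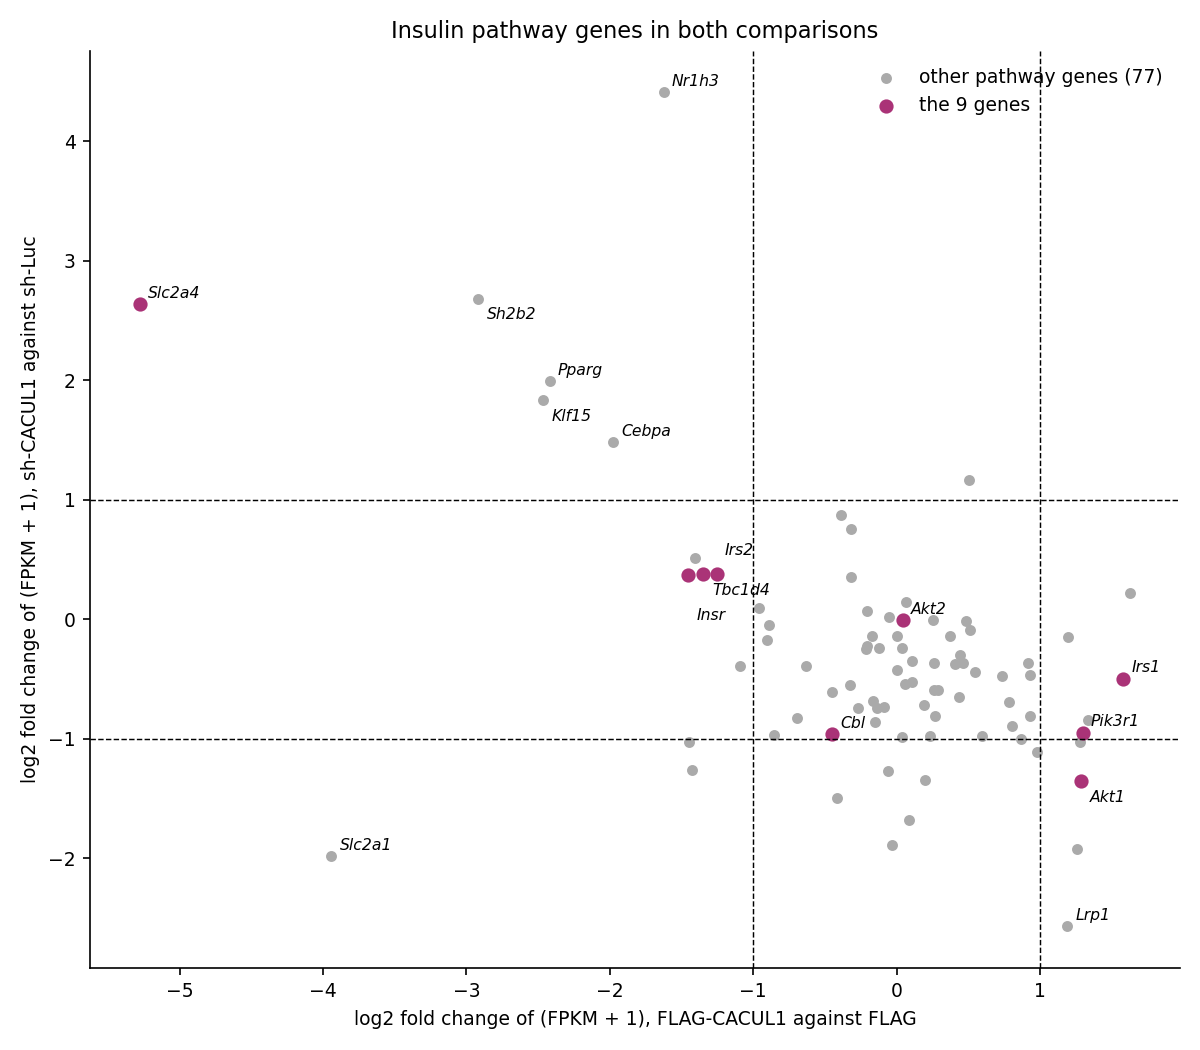
Log2 fold change of FPKM + 1 in FLAG-CACUL1 against FLAG (x) and in sh-CACUL1 against sh-Luc (y) for the 9 genes and 77 further pathway genes, with dashed lines at 2-fold. Slc2a4 lies at upper left with Sh2b2, Klf15, Pparg, Cebpa and Nr1h3, whereas Slc2a1 lies at lower left.

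The genes with the most similar profile were sought among 10833 genes with a mean of at least 1 FPKM, as the smallest Euclidean distance of centred log2(FPKM + 1) over the 4 samples. For Insr they were Fads1 (0.03), Slc26a6 (0.05) and Chchd6 (0.08). For Irs1 they were Asb6 (0.10), Rbx1 (0.10) and Phf20l1 (0.12), and for Irs2 Ptpn6 (0.13), Ap4m1 (0.16) and Tfrc (0.26). For Pik3r1 they were Dhx15 (0.08), Zbed3 (0.09) and Efna5 (0.09), for Akt1 Fam13b (0.08), Xpot (0.11) and Dctn2 (0.13), and for Akt2 Tmem255a (0.04), Snx22 (0.06) and Zfp597 (0.06). For Tbc1d4 they were Tstd1 (0.13), Cnnm2 (0.16) and Rreb1 (0.17), and for Cbl Enox1 (0.04), Gtpbp6 (0.06) and Prkaa1 (0.07). Slc2a4 had no neighbour as close, but this distance is not scaled for range and tends to be larger for genes that vary as widely. The nearest were G0s2, an inhibitor of lipolysis in fat cells, at a distance of 0.70, Ltc4s at 1.04 and Cox7a1 at 1.19. G0s2 was at 133 FPKM in FLAG, 3.24 FPKM in FLAG-CACUL1, 4.14 FPKM in sh-Luc and 60.4 FPKM in sh-CACUL1.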

How the data were processed

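Per the labels and the methods of the study, a company prepared and sequenced mRNA libraries from total RNA of the 4 lines. The authors deposited FPKM values, 13110 rows per sample named by RefSeq transcripts, and the submitters' processing notes name the build mm10. The aligner, the counting program, the annotation, and any normalization between samples are not given in the sources used here. FPKM holds no counts, so no count test was used.

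Rows were joined to symbols through GENCODE M21 (GRCm38, the same assembly as mm10). No symbol was found for 196 of them, and rows of 1 symbol were summed, which left 13085 genes, 9563 of them at 1 FPKM or more in all 4 samples, as were 8 of the 9 genes described (not Slc2a4). Fold changes are on log2(FPKM + 1) and counted at 2-fold, the cut-off of the study, against the control with the same vector. Depth was estimated in single-transcript rows whose length reached 3000 bases. The genes and lists were chosen with earlier results of these data known. Genes were named if they were among the 9, among the up to 4 largest 2-fold differences of a list with at least 1 FPKM, among the 3 most similar profiles, or Cacul1. Igf1r, Pik3ca, Tbc1d1, Cblb, Lnpep, Mef2a, Mef2d, Hdac5 and Rxra were named for comparison after their values were seen, as were the values of single markers. Some listed pathway genes are not reported here and were left out of the list counts. The fold calls and the depth estimate were tested on simulated data. Promoter sequences and motif shares are from RefSeq. Python 3.11.15, numpy 2.4.6, pandas 2.3.3, scipy 1.17.1 and matplotlib 3.10.9 were used.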

Additional observations from a re-analysis of the deposited data

How the results depend on the processing

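With 1 sample per line no paired analysis was possible, and no replicate could be left out. The log2 fold changes of the 9 genes were recomputed 231 times under other settings. Of these, 208 kept their sign and their side of 2-fold, 7 fell under 2-fold, 4 rose past it, 10 that were under 2-fold changed sign, and 2 that were past 2-fold reversed. Among the 208 are 27 with 1 FPKM required in at least 1 sample and 24 with it required in all. A further 27 used the highest row per symbol. None of these could change, because each gene had 1 row and its FPKM stayed as it was. With the other control, only 6 of 18 kept their sign and their side of 2-fold. The 2 reversals came with the other control, which gave -0.61 for Pik3r1 in FLAG-CACUL1 and -1.69 for Slc2a4 in sh-CACUL1. With the other control, FLAG-CACUL1 had 0 of the 9 genes higher and 1 lower at a median of -0.61 and 5 pathway genes lower, and sh-CACUL1 had 0 higher and 2 lower at a median of -0.43. All genes then had 5.04% higher and 4.87% lower in FLAG-CACUL1 at a median of -0.10, and 7.45% and 15.4% in sh-CACUL1 at -0.07. A pseudocount of 0.1 gave a median of -0.64 in FLAG-CACUL1, none gave -0.68, and both gave 11 pathway genes higher there and 2 of the 9 genes lower in sh-CACUL1, where 20 pathway genes were lower with none. Of all 13085 genes, 1786 with 0.1 and 2192 with none were higher in FLAG-CACUL1, and 3078 and 3437 were lower in sh-CACUL1. FPKM set to a common sum gave medians of -0.55 in FLAG-CACUL1, 0.15 in sh-CACUL1 and 0.25 between the controls, with 2 genes lower in sh-CACUL1, beside 2052 of all 13085. Median-of-ratios scaling gave 0 lower in sh-CACUL1 at a median of 0.45, 6 pathway genes lower there, and a median of -0.17 between the controls. Of all 13085 genes, 975 were then lower in sh-CACUL1. Quantile normalization gave medians of 0.35 and -0.18 and 6 pathway genes lower in sh-CACUL1, beside 1084 of all 13085 genes. Requiring 1 FPKM in all samples removes Slc2a4 and gave medians of -0.20 and -0.25, with 0 higher in sh-CACUL1 and 1 lower between the controls. Of the 9563 genes left, 437 were higher in sh-CACUL1 and 775 lower between the controls. At 1.5-fold, 16 pathway genes were higher and 16 lower in FLAG-CACUL1, and 34 were lower in sh-CACUL1 with 3 of the 9 genes. Of all 13085 genes, 2621 were then higher and 1873 lower in FLAG-CACUL1, and 4487 were lower in sh-CACUL1. At 3-fold the 9 genes gave 0 higher and 1 lower in FLAG-CACUL1, 0 lower in sh-CACUL1, and 1 higher and 1 lower between the controls, and the pathway genes gave 1 higher and 6 lower, and 5 lower. All 13085 genes gave 283 higher and 380 lower in FLAG-CACUL1, 684 lower in sh-CACUL1, and 457 higher and 537 lower between the controls. The cause of these shifts was not tested. Depth limits Slc2a4 in FLAG-CACUL1 most, at 4 fragments.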

Other observations

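Between the controls, sh-Luc against FLAG, 10 of the 77 pathway genes were at least 2-fold higher and 10 lower, 13.0% each against 12.4% and 8.58% of all genes. Of the 8 factors at the Slc2a4 promoter 4 were lower in sh-Luc and none was higher, and 7 of the 8 adipocyte markers were lower. Pde3b, which encodes the phosphodiesterase through which insulin restrains lipolysis, was at 12.7 FPKM in FLAG, 6.54 FPKM in FLAG-CACUL1, 1.10 FPKM in sh-Luc and 0.0746 FPKM in sh-CACUL1. It was thus lowest in the line with the highest adipocyte marker sum, most of which came from Fabp4. Pde3b was named after its values were seen. Rhoq, which encodes the small GTPase TC10 of the CBL branch, was at 56.0, 65.9, 28.7 and 14.1 FPKM and did not follow Sh2b2. Inpp5k, which encodes a lipid phosphatase, was at 8.15 and 6.94 FPKM in the FLAG vector lines and 15.3 and 16.1 FPKM in the hairpin lines. Levels of Inpp5k were closer within the lines that share a vector and selection drug than between them. With 1 sample per line, vector, drug, culture and selected cells cannot be told apart here, and none was tested. Rhoq and Inpp5k were likewise named after their values were seen.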
